A study of Mus musculus with 26 samples.

Results

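Proteasome genes were taken from the RNA-seq table of *Zfp57* mutant ES cells as the genes whose symbols begin with Psma, Psmb, Psmc, Psmd, Psme, Psmf or Psmg followed by a number. This rule found 50 of 24409 genes. Of these, 10 lie on chromosome 11, 0 on chromosome 6 and 40 on other chromosomes. The 50 genes comprise 7 genes of the 20S alpha ring and *Psma8*, its testis counterpart, 7 genes of the 20S beta ring and 4 inducible beta subunits. The regulatory particle is covered by 6 ATPases and 11 non-ATPases, and there are 3 assembly chaperones of the 19S particle, 4 of the 20S particle, and 5 genes for activators and an inhibitor. A further 2 genes match by symbol without a role as a subunit. They are *Psmc3ip*, a factor of meiotic recombination, and *Psme2b*, a copy of the activator gene *Psme2*. The comparison asks whether transcripts of subunits that assemble into 1 complex differ between wild-type (WT) and mutant (KO) cells according to the chromosome that carries their genes.

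The proteasome is the protease that degrades ubiquitin-tagged proteins. Its 20S core is a stack of alpha and beta rings that enclose the active sites, and the 19S regulatory particle recognises, unfolds and feeds in the substrate. Each ring and the regulatory particle hold their subunits in fixed numbers, and subunits left without partners are generally unstable. The transcription factor NRF1, encoded by *Nfe2l1*, raises the transcription of many proteasome genes together when proteasome activity is limiting. ES cells are known for high proteasome activity.

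The study examined ZFP57, a KRAB zinc finger protein that protects methylation imprints, in male ES cells of the C57BL/6J strain. RNA-seq was done on 3 WT libraries and 2 libraries of cells with a homozygous zygotic knockout of *Zfp57*, which disrupts its KRAB and zinc finger exons, with reads of 150 bp. WT and KO cells were derived from embryos in N2B27 medium with LIF and inhibitors of Erk and Gsk3 (2i), and were used at equal passage numbers of 15 at most. According to the growth notes every new line was karyotyped, and the karyotypes were not analysed here. The labels number the libraries without stating from which embryo each came, so p-values measure the spread between these libraries.

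The values are FPKM as deposited, that is, fragments adjusted for the length of the transcript and the size of the library. From the FPKM steps of short RNAs, the libraries were estimated to hold between 50600000 and 58900000 fragments. *Zfp57* measured 75.9, 72.3 and 70.6 FPKM in WT and 19 and 21.6 in KO, and thus fell to 27.8% in the libraries labelled KO (log2 fold change -1.84, limma adjusted p = 0.000234). All 8 ES cell markers were expressed, with sums of 677 to 685 FPKM in WT and 733 to 788 in KO. They did not move together, since limma called 4 higher (*Pou5f1*, *Esrrb*, *Klf4* and *Tfcp2l1*) and 1 lower, *Dppa3*, at 24.2 to 37.0 FPKM in WT and 9.04 and 4.43 in KO. The sums of 5 fibroblast markers (0.34 to 0.36 in WT, 0.16 to 0.33 in KO) and of 5 primitive endoderm markers (0.64 to 0.82 in WT, 0.49 to 0.59 in KO) were near 0, and *Col3a1* was at 0 throughout. The 5 trophoblast markers summed to 16.4 to 18.4 FPKM in WT and 15.8 to 17.3 in KO, most of it *Tfap2c*, which ES cells also express. Within this sum *Tfap2c* was lower in KO, while *Eomes* (0.38 to 0.60 FPKM in WT, 2.13 and 2.40 in KO) and *Krt8* (0.56 to 0.66 in WT, 1.73 and 2.13 in KO) were higher. The part of these differences in the results on proteasome genes was not tested. In bulk RNA, fewer cells of a type and less RNA per cell cannot be told apart.

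A log2 fold change below always means the KO minus the WT mean of log2(FPKM + 0.1), tested with limma across all genes that averaged at least 0.1 FPKM. Of the 50 proteasome genes, 48 passed this filter and 17 of them passed the test (adjusted p under 0.05), 1 higher and 16 lower in KO. Among all 14612 genes tested, 41.1% passed, 18.8% higher and 22.3% lower. Medians stood at -0.11 for the 48 genes and at -0.01 for all genes tested. Of the 10 proteasome genes on chromosome 11, 9 fell and none rose, with a median of -0.55, or 68.1% of the WT level. Of the 38 tested genes on other chromosomes, 1 rose, 7 fell and 30 did not pass, with a median of -0.07, or 95.1% of the WT level. The count elsewhere depends on the scaling. When each library was centred on all tested genes, 15 were lower (39.5%, against 20.6% of all tested genes outside chromosomes 11 and 6). Centring on genes outside chromosomes 11 and 6 gave 20 lower (52.6%, against 23.0%), with a median of -0.13. Quantile normalization gave 10 lower (26.3%, against 16.8%). None was higher in these cases.

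**Figure D1:**
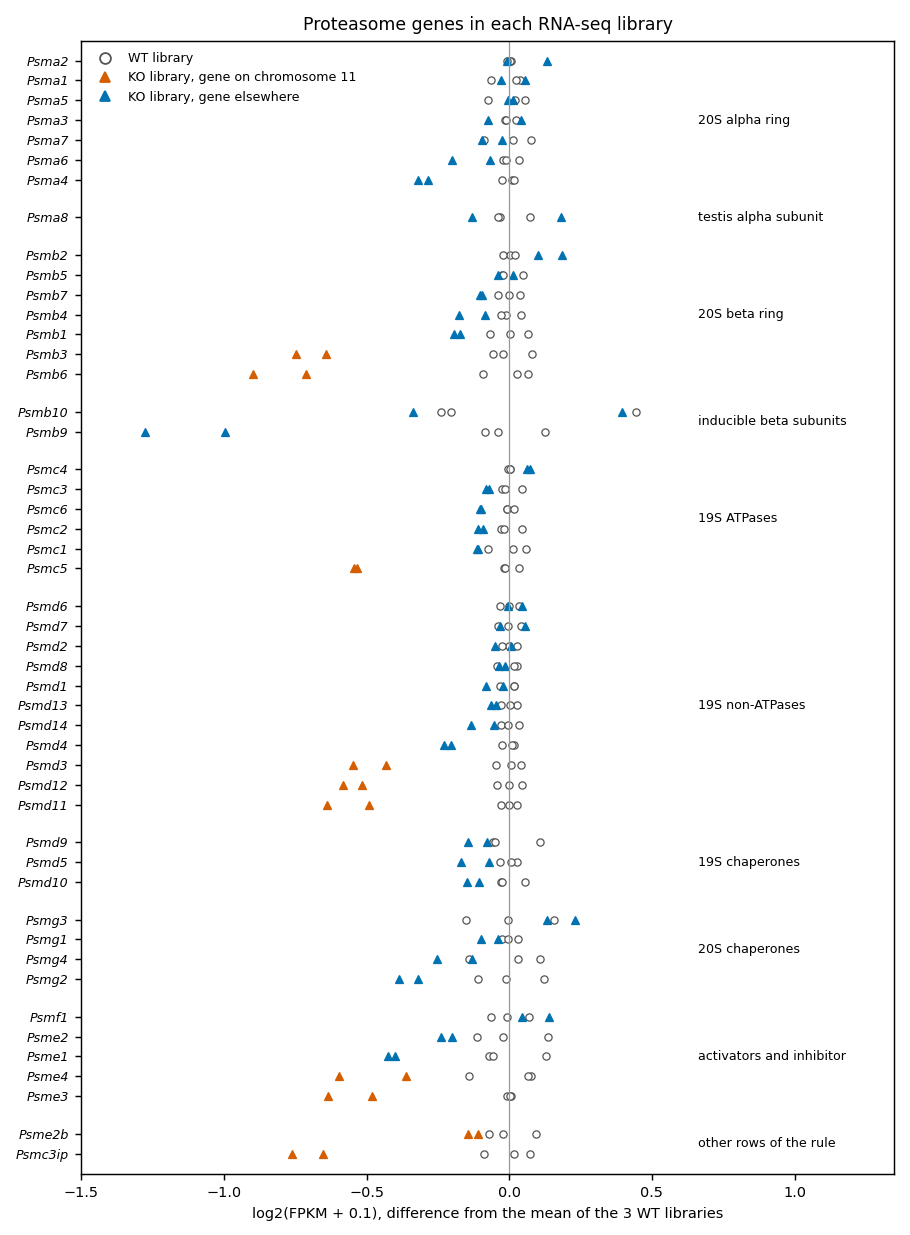
Each row is 1 of the 48 tested proteasome genes, grouped by role, and the horizontal axis gives the log2(FPKM + 0.1) of each library minus the mean of the 3 WT libraries. Both KO libraries (triangles) lie below every WT library (open circles) for the 10 chromosome 11 genes (orange) and for 20 of the 38 genes elsewhere (blue). Most of those elsewhere stay near 0. Of all tested genes, 63.4% had WT and KO values without overlap in either direction, and 81.3% of those on chromosome 11.

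In the beta ring, *Psmb6* and *Psmb3* are the genes on chromosome 11. *Psmb6* (chr11:70525324-70527858, plus strand, GRCm38) encodes beta 1, the active site with caspase-like specificity. It measured 111, 99.9 and 109 FPKM in WT and 65.0 and 57.1 in KO. Both KO values were far below the lowest WT value, and the gene fell to 57.3% of the WT mean (log2 fold change -0.81 ± 0.07 SE, limma adjusted p = 0.000706). *Psmb3* (chr11:97703434-97713500), for the structural subunit beta 3, measured 66.3, 60.4 and 61.8 FPKM in WT and 40.2 and 37.3 in KO. The groups again did not overlap, and it fell to 61.7% (-0.70 ± 0.06 SE, limma adjusted p = 0.000565).

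The other 5 beta ring genes had a median of -0.10, with 1 higher, 1 lower and 3 that did not pass. *Psmb7* encodes beta 2, the trypsin-like active site, and was the most abundant proteasome transcript. It measured 121, 118 and 124 FPKM in WT and 113 and 113 in KO, without overlap and without passing the test (-0.10 ± 0.04 SE, limma adjusted p = 0.0801), although it passed as lower when each library was centred on its median gene (adjusted p = 0.0235). *Psmb5* encodes beta 5, the chymotrypsin-like site. Its WT values of 21.8, 20.8 and 20.8 FPKM overlapped its KO values of 20.5 and 21.3 (-0.01, 95% interval -0.12 to 0.09, limma adjusted p = 0.82). Of the 3 catalytic subunits of the standard core, the transcript of 1 thus fell and those of the others did not pass the test.

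*Psmb2* was the only proteasome gene higher in KO. It encodes beta 4 and lies on chromosome 4. It measured 29.8, 30.2 and 29.3 FPKM in WT and 32.0 and 33.8 in KO (0.14 ± 0.04 SE, limma adjusted p = 0.0347). This call was lost without any one of WT 1, WT 2, WT 3 or KO 2, with adjusted p between 0.0734 and 0.133, under all 3 other scalings, and without the variance trend. *Psmb1* (beta 6, chromosome 17) was lower, at 61.8, 58.9 and 64.6 FPKM in WT and 54.0 and 54.7 in KO (-0.18 ± 0.05 SE, limma adjusted p = 0.0238), and its call was lost without any one of WT 1, WT 3, KO 1 or KO 2, with adjusted p between 0.0646 and 0.0957, and without the variance trend (adjusted p = 0.0821).

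Promoter sequence is shown for genes that moved and one that did not. The 100 bases before the start of *Psmb3* and of *Psme3*, an activator gene described further on, are given with those before *Psmb5*, from the RefSeq promoters of GRCm38.p6 and on the strand of the gene. Capitals mark CCAAT, read on either strand, and TGACNNNGC, the core of the antioxidant response element to which NRF1 and NRF2 bind.
Psmb3, chr11:97703334-97703433, plus strand: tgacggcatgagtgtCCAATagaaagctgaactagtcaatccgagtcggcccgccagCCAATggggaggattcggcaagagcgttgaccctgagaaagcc
Psme3, chr11:101316113-101316212, plus strand: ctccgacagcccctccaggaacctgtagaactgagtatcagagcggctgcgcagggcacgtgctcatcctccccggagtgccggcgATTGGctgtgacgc
Psmb5, chr14:54617996-54618095, minus strand: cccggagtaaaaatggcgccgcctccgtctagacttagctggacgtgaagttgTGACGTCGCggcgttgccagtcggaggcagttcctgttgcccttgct

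Promoter windows running from 250 bases before to 50 bases after the start were found for 42 of the 50 genes. TGACNNNGC, searched on both strands, occurred in 6 of the 42 (14.3%) and in 14% of the windows of 27025 genes. The 6 are *Psmb6*, *Psmd12* and *Psme4* among 9 windows on chromosome 11, and *Psmb5*, *Psmc6* and *Psmd9* among 33 elsewhere. CCAAT occurred in 15 of the 42 (35.7%, against 41.1% of all), including 3 of the 9 on chromosome 11. TGCCGC, the hexanucleotide that ZFP57 binds when methylated, occurred in 4 of the 42 (9.52%, against 13.1%), namely *Psma7*, *Psmc5*, *Psmc6* and *Psmd8*. The windows of the chromosome 11 genes thus did not all share any of these motifs.

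The alpha ring, which forms the gate of the core, has no gene on chromosome 11. Its 7 genes had a median log2 fold change of -0.02, and 1 of them fell. That gene was *Psma4* (alpha 3, chromosome 9), at 65.3, 66.8 and 67.3 FPKM in WT and 54.5 and 53.2 in KO. The groups were clearly apart, at -0.30 ± 0.04 SE (limma adjusted p = 0.00147). The other 6 ranged from *Psma6*, at -0.13 (limma adjusted p = 0.0727), to *Psma2*, at 0.06 (adjusted p = 0.338). The testis counterpart *Psma8* was present at 6.01 to 6.51 FPKM in WT and at 7.02 and 5.64 in KO, with overlap.

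Inducible beta subunits replace the standard active sites in immune cells and in the thymus, and these 4 genes were barely transcribed. *Psmb8* (beta 5i) was at 0.01, 0 and 0.06 FPKM in WT and 0 and 0.03 in KO, and *Psmb11* (the thymic beta 5t) at 0 in every WT library and 0.01 and 0.02 in KO, so neither was tested. *Psmb10* (beta 2i) measured 0.66, 1.12 and 0.68 FPKM in WT and 1.08 and 0.61 in KO, with full overlap. *Psmb9* (beta 1i, chr17:34182030-34187330) measured 0.27, 0.23 and 0.22 FPKM in WT and 0.07 and 0.04 in KO. These values rest on an estimated 1.78 to 12 fragments per library, yet the groups did not overlap and the gene fell (-1.14 ± 0.21 SE, limma adjusted p = 0.00741). The size depends on the constant added before the logarithm, from -0.23 with 1 FPKM to -1.98 with 0.01 FPKM.

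Genes that are induced together with the inducible subunits were also low. Of a list of 10 antigen-processing genes 8 were tested, 1 was higher and 2 lower, with a median of -0.28. These 3 calls among 8 genes are near the 41.1% of all genes tested. The peptide transporter genes *Tap1* and *Tap2* share a cluster with *Psmb8* and *Psmb9*, in the order *Psmb9*, *Tap1*, *Psmb8*, *Tap2*. *Tap1* measured 0.48, 0.30 and 0.36 FPKM in WT and 0.27 and 0.21 in KO (limma adjusted p = 0.13), and *Tap2* was below the filter at 0.11 to 0.21 in WT and 0.01 and 0.03 in KO. The class I genes *H2-K1* (-2.06, limma adjusted p = 0.000593) and *H2-D1* (-1.02, adjusted p = 0.00643) fell. *Psmb9* lies 2.81 Mb from *Zfp57* on the same chromosome. The 89 tested neighbours of *Psmb9* within 1 Mb had a median of -0.01, with 16 lower and 13 higher. Whether the vicinity of the targeted locus has a part in these values was not tested.

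Of the 6 ATPases, which form the unfolding ring of the 19S particle, *Psmc5* (Rpt6, chr11:106256185-106263112) is on chromosome 11. It measured 71.5, 68.9 and 69.1 FPKM in WT and 48.2 and 47.9 in KO. The libraries of each group lay close together and far from the other group, and the gene fell to 68.8% (-0.54 ± 0.04 SE, limma adjusted p = 0.000394). The other 5 ATPases had a median of -0.10, from -0.11 for *Psmc1* (limma adjusted p = 0.109) to 0.07 for *Psmc4* (adjusted p = 0.15). Only *Psmc6* among them passed, at 70.8, 71.0 and 72.1 FPKM in WT and 66.4 and 66.6 in KO (-0.10 ± 0.03 SE, limma adjusted p = 0.0479), and its call was lost whichever single library was left out (adjusted p 0.0916 to 0.136).

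The 11 non-ATPases form the base scaffold and the lid of the 19S particle, and 3 of them, all lid subunits, lie on chromosome 11. *Psmd11* (Rpn6, chr11:80428615-80473248), which clamps the lid to the core, measured 70.3, 71.7 and 73.1 FPKM in WT and 50.9 and 46.0 in KO (67.6% of WT, -0.57 ± 0.05 SE, limma adjusted p = 0.000744). *Psmd12* (Rpn5, chr11:107479528-107498036) measured 87.6, 90.2 and 93.2 in WT and 63.1 and 60.2 in KO (68.3%, -0.55 ± 0.04 SE, limma adjusted p = 0.00056). *Psmd3* (Rpn3, chr11:98682554-98695978) measured 50.1, 47.1 and 48.9 in WT and 36.1 and 33.2 in KO (71.2%, -0.49 ± 0.05 SE, limma adjusted p = 0.00103). All 3 fell, and in none did a KO value reach the lowest WT value.

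The 8 non-ATPases on other chromosomes had a median of -0.04, and 1 fell. This was *Psmd4*, the ubiquitin receptor Rpn10, at 64.0, 65.8 and 65.6 FPKM in WT and 55.5 and 56.4 in KO (-0.22 ± 0.03 SE, limma adjusted p = 0.00422). The largest subunits, *Psmd1* and *Psmd2*, which build the scaffold of the base, were at -0.05 (limma adjusted p = 0.317) and -0.02 (adjusted p = 0.652). *Psmd14*, the deubiquitinase Rpn11 of the lid, was at -0.09 (limma adjusted p = 0.117). Taking core and regulatory particle as 1 set of subunits, 6 of 6 on chromosome 11 fell, with a median of -0.56, and of 25 elsewhere 1 rose, 4 fell and 20 did not pass, with a median of -0.06. Among all genes tested, 67.4% were lower on chromosome 11 (84.0% of those averaging 10 FPKM or more), and outside chromosomes 11 and 6 18.4% were lower and 19.4% higher.

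**Figure D2:**
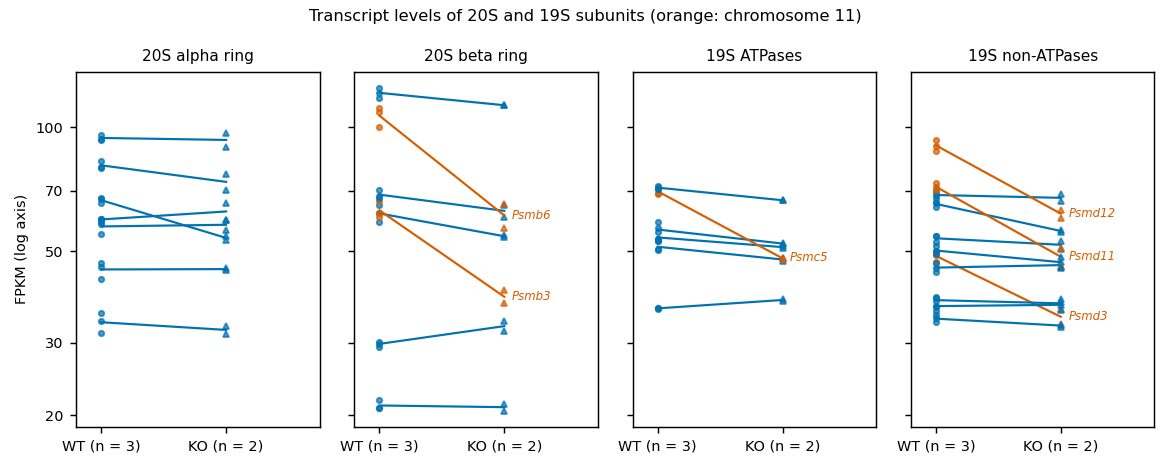
Mean FPKM of WT (n = 3) and KO (n = 2) libraries on a log axis, joined for each subunit, with single libraries as points, for the alpha ring, the beta ring, the ATPases and the non-ATPases. Lines of the 6 chromosome 11 genes (orange) slope down and cross those of several partners (blue); *Psmc5* goes from rank 2 to rank 4 of 6 ATPases.

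Because FPKM are scaled for transcript length, subunits of 1 ring can be set against each other within a library. The log2 ratio of *Psmb6* to the mean of the 5 beta ring genes on other chromosomes was 1.14, 1.02 and 1.09 in WT and 0.43 and 0.23 in KO. For *Psmb3* the ratio was 0.39, 0.29 and 0.28 in WT and -0.26 and -0.38 in KO, so it lay above the mean of these partners in every WT library and below that mean in both KO libraries. *Psmc5* changed sign in the same way, with ratios of 0.43, 0.41 and 0.38 to the other 5 ATPases in WT and -0.06 and -0.08 in KO. The ranks within the rings moved accordingly. *Psmb6* went from rank 2 to 3 and *Psmb3* from 4 to 5 of 7, *Psmd11* from 2 to 5, *Psmd12* from 1 to 2 and *Psmd3* from 7 to 10 of 11. The lid gene *Psmd12* was the most abundant non-ATPase in WT, and *Psmd2* took that rank in KO. *Psmd3* was level with the mean of its 8 partners in WT, at 0.07, 0.01 and 0.02, and lay below it in KO, at -0.35 and -0.45. These ratios describe transcripts, and the amounts of subunit protein were not measured.

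Assembly chaperones are represented by 7 genes, of which none lies on chromosome 11. The 3 genes of the 19S chaperones (*Psmd5*, *Psmd9* and *Psmd10*) had log2 fold changes of -0.12, -0.11 and -0.13, and none passed (limma adjusted p 0.0926, 0.366 and 0.124). Among the 4 genes of the 20S chaperones, *Psmg2*, which pairs with *Psmg1* to guide the alpha ring, fell from 11.8, 11.1 and 12.99 FPKM in WT to 9.09 and 9.54 in KO (-0.35 ± 0.08 SE, limma adjusted p = 0.0125). Its call was lost without KO 1 (adjusted p = 0.071). *Psmg1* itself was at -0.07 (limma adjusted p = 0.223), *Psmg3* at 0.18 (adjusted p = 0.209) and *Psmg4* at -0.19 (adjusted p = 0.107).

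Activators bind the ends of the 20S core in place of the 19S particle. The activator genes *Psme3* and *Psme4* lie on chromosome 11 and were the most abundant of this group. *Psme3* (PA28 gamma, the nuclear activator, chr11:101316213-101323537) was at 69.8, 69.1 and 69.6 FPKM in WT and 49.8 and 44.7 in KO, and fell to 67.9% (-0.56 ± 0.05 SE, limma adjusted p = 0.000751). *Psme4* (PA200, chr11:30771775-30881150) was at 64.1, 74.5 and 74.1 in WT and 54.96 and 46.7 in KO. It fell to 71.7% (-0.48 ± 0.09 SE, limma adjusted p = 0.009), with the widest spread of these 9 genes, and the call was lost without KO 2 (adjusted p = 0.057).

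*Psme1* and *Psme2*, the interferon-inducible partners of the PA28 alpha-beta ring, are neighbours on chromosome 14. *Psme1* fell, from 24.4, 24.7 and 28.0 FPKM to 19.1 and 19.4 (-0.41 ± 0.07 SE, limma adjusted p = 0.00495). *Psme2* measured 15.4, 16.4 and 18.3 in WT and 14.5 and 14.1 in KO, which was below WT without passing (-0.22, limma adjusted p = 0.0621). Reads of *Psme2* could be shared with its copy *Psme2b*, so that both values are uncertain. The inhibitor gene *Psmf1* was at 3.38 to 3.72 FPKM in WT and 3.65 and 3.91 in KO (0.09, limma adjusted p = 0.379).

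The 2 symbol matches that are no subunits lie on chromosome 11. *Psmc3ip* (chr11:101092141-101095435) fell from 18.3, 17.6 and 16.3 FPKM to 11.01 and 10.2 (-0.71 ± 0.06 SE, limma adjusted p = 0.000724). *Psme2b* (chr11:48945345-48946410) measured 1.93, 2.18 and 2.00 in WT and 1.88 and 1.83 in KO. It was the chromosome 11 gene that did not pass (-0.13, 95% interval -0.36 to 0.11, limma adjusted p = 0.336). Without these genes the other 8 on chromosome 11 all fell, between -0.81 and -0.48. The RefSeq spans of 4 of the 10, *Psmc3ip*, *Psmc5*, *Psme2b* and *Psme4*, overlap another gene. So do those of 10 of the 38 tested genes elsewhere, among them *Psma4*, *Psmb5*, *Psmb7*, *Psmd1* and *Psme1*. Reads of overlapping genes cannot be told apart where the strand of counting is unknown.

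Proteasome genes were next set against the other genes of their chromosomes. On chromosome 11, 70.1% of 1224 tested genes passed, 67.4% lower and 2.7% higher in KO, with a median of -0.47. Since the tested proteasome genes are mostly abundant, genes averaging 10 FPKM or more are the closer background. Chromosome 11 has 424 of them, of which 87.0% passed, 84.0% lower and 3.07% higher, with a median of -0.45. The 9 of 10 proteasome genes that fell (90.0%) are near this share. *Psmb6* was the furthest down, with 19.9% of the genes of the chromosome below it, followed by *Psmc3ip* with 25.6% and *Psmb3* with 26.6%, while *Psme4* had 48.0% below it. When the median of each chromosome was subtracted before the test, 3 of the 10 remained lower, and *Psmc5*, *Psmd3*, *Psmd11*, *Psmd12*, *Psme3* and *Psme4* lost their calls. *Psme2b* then lay above its chromosome (0.34, limma adjusted p = 0.0302).

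The backgrounds of the other proteasome genes were different. Outside chromosomes 11 and 6, 37.8% of 12662 tested genes passed, 19.4% higher and 18.4% lower, with a median of 0.01. Of these, 3492 averaged 10 FPKM or more, and 43.3% of the 3492 passed, 26.9% higher and 16.4% lower, with a median of 0.04. The 38 proteasome genes elsewhere had 2.63% higher and 18.4% lower, and 27 of them had a log2 fold change below 0. With libraries centred on genes outside chromosomes 11 and 6, 52.6% of them were lower, against 23.0% of all tested genes there. No test of these shares was made.

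Both KO libraries showed the difference between chromosomes. Each KO library was set against the mean of all WT libraries, and each WT library against the mean of the other WT libraries. For the 10 chromosome 11 genes, the median log2 difference from this mean was 0.03, -0.01 and 0.01 in the WT libraries, -0.50 in KO 1 and -0.62 in KO 2. All 10 genes were below 0 in each KO library. For the 38 genes elsewhere the medians were 0.00, -0.04 and 0.03 in WT and -0.06 and -0.09 in KO. The chromosome 11 median minus the other was -0.44 in KO 1 and -0.52 in KO 2, and between -0.02 and 0.03 in the WT libraries. In all, 32 of the 48 tested proteasome genes had WT and KO values without overlap, 10 of 10 on chromosome 11 and 22 of 38 elsewhere. The 10 on chromosome 11 were lower in KO, and of the 22 elsewhere 20 were lower and 2 higher. In either direction, 63.4% of all genes tested did not overlap, 81.3% on chromosome 11 and 61.4% outside chromosomes 11 and 6.

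**Figure D3:**
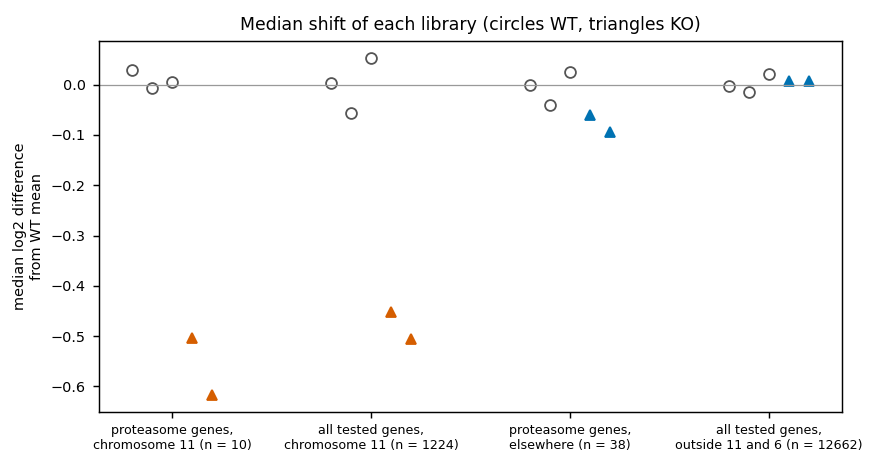
Median log2 difference from the WT mean in each library (circles WT, triangles KO) for proteasome genes and for all tested genes, on chromosome 11 (orange) and elsewhere (blue). For a WT library, this mean leaves that library out. The KO medians of the chromosome 11 proteasome genes, -0.50 and -0.62, lie near those of all chromosome 11 genes, -0.45 and -0.51, and apart from those of the proteasome genes elsewhere.

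The genes around each chromosome 11 proteasome gene were lower as well. Tested genes within 1 Mb, proteasome genes left out, had medians from -0.63 around *Psme3* (70 genes) to -0.26 around *Psme4* (11 genes). *Psmb6* at -0.81 was below the median of its 80 neighbours, -0.56, and *Psmb3* at -0.70 below that of its 57 neighbours, -0.45. In both cases the neighbour median lay outside the 95% interval of the gene, -0.98 to -0.63 for *Psmb6* and -0.83 to -0.56 for *Psmb3*. For *Psmc3ip*, *Psmc5*, *Psmd3*, *Psmd11*, *Psme2b*, *Psme3* and *Psme4* the neighbour median lay inside it. For *Psmd12* it was -0.43 (19 genes), beyond the upper bound of -0.45. Each interval covers the spread of a gene between libraries and not the spread among its neighbours. Whether a gene fell beyond its region was therefore not tested.

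**Figure D4:**
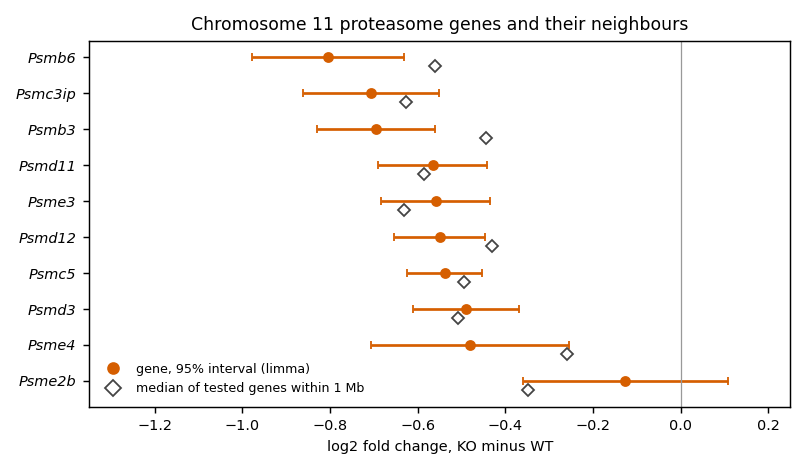
Log2 fold change of the 10 chromosome 11 proteasome genes with the 95% interval of limma (circles and bars) and the median of the other tested genes within 1 Mb (diamonds). The neighbour medians all lie below 0, and those around *Psmb6*, *Psmb3* and *Psmd12* lie above the intervals of these genes.

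As a share of all transcripts, the 50 proteasome genes held 1.03, 1.02 and 1.03% of the summed FPKM in WT and 0.886 and 0.858% in KO. The 10 genes on chromosome 11 held between 28.2 and 28.4% of the proteasome sum in each WT library, 22.3% in KO 1 and 21.0% in KO 2. The lower share was thus seen in both KO libraries, and the WT libraries differed little.

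Chromosome 6 carries no gene with a matching symbol, but *Shfm1* (Sem1, chr6:6558275-6578658), a small lid subunit, is encoded there and was on the list of 31 related genes. It was at 36.2, 36.7 and 34.9 FPKM in WT and 44.3 and 49.4 in KO. Both KO values exceeded every WT value, and the gene rose to 130% of WT (0.38 ± 0.06 SE, limma adjusted p = 0.00333). On chromosome 6, 50.1% of 679 tested genes passed, 37.4% higher and 12.7% lower, with a median of 0.17. *Shfm1* thus moved in the opposite direction to its lid partners *Psmd3*, *Psmd11* and *Psmd12*.

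The related genes comprise further subunits, assembly factors, proteasome-bound enzymes, shuttle factors, ubiquitin genes and regulators of proteasome genes. Of the 31, 30 were in the table and 29 were tested, of which 6 were higher, 5 lower and 18 did not pass, with a median of 0.02. The 11 calls among 29 genes are near the 41.1% of all genes tested. All 4 on chromosome 11 were lower. *Nfe2l1*, encoding NRF1, measured 47.2, 43.7 and 46.2 FPKM in WT and 35.6 and 35.3 in KO (-0.37 ± 0.04 SE, limma adjusted p = 0.00174). *Nploc4*, a cofactor of the unfoldase VCP, fell by 0.51 on the log2 scale (limma adjusted p = 0.000954). The ubiquitin genes *Ubb* (-0.25, limma adjusted p = 0.0039) and *Rps27a* (-0.32, adjusted p = 0.00656) fell too, relative to the library. Against the median of chromosome 11, *Nfe2l1*, *Ubb* and *Rps27a* lay above it, by 0.10, 0.23 and 0.15. Only *Ubb* among them then passed as higher (limma adjusted p = 0.00654).

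Outside chromosomes 11 and 6, 24 related genes were tested, of which 5 were higher, 1 lower and 18 did not pass. Of all genes tested there, 19.4% were higher and 18.4% lower. Among regulators, *Nfe2l2*, encoding the oxidative stress factor NRF2, rose from 30.7, 31.4 and 31.6 FPKM to 42.1 and 45.1 (0.48 ± 0.04 SE, limma adjusted p = 0.000707). The shuttle factor *Ubqln2* (0.42, limma adjusted p = 0.0015) and *Zfand5*, whose protein stimulates the 26S proteasome (0.36, adjusted p = 0.00718), rose as well. *AI314180* (Ecpas), an adaptor of the proteasome, fell (-0.36, limma adjusted p = 0.0227). The ubiquitin receptor *Adrm1* of the 19S particle (0.02, limma adjusted p = 0.746) and *Pomp*, the maturation factor of the 20S core (-0.06, adjusted p = 0.344), did not pass.

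**Figure D5:**
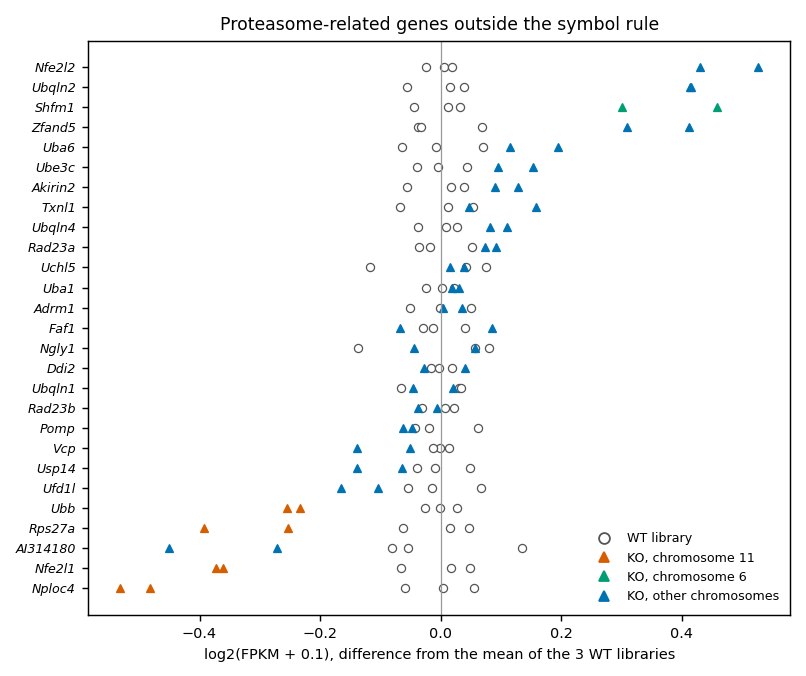
Log2(FPKM + 0.1) of each library minus the WT mean for 27 of the 29 tested related genes, ordered by fold change, with WT as open circles and KO as triangles coloured by chromosome. The 4 chromosome 11 genes (orange) lie to the left with *AI314180*, and *Shfm1* of chromosome 6 (green) lies to the right with *Nfe2l2*, *Ubqln2* and *Zfand5*.

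Binding of ZFP57 near these genes was read from the ChIP-seq peaks, positions without a score that were called in WT cells. A peak lay within 20 kb of 2 of the 50 genes (4.0%), against 4.25% of 24288 placed genes. The peak near *Psme3* is 413 bases wide, ends 2934 bases before the gene and overlaps no RefSeq gene. The peak at *Psmg4* is 559 bases wide, lies in an intron and was also in the list named for hybrid cells. From each, 100 bases of GRCm38.p6 are printed on the plus strand around the first TGCCGC, in capitals (GCGGCA on the other strand), since this is the hexanucleotide that ZFP57 recognises.
Peak before Psme3, chr11:101312924-101313023: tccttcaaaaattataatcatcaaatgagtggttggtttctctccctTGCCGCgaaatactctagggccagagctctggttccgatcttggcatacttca
Peak in Psmg4, chr13:34166411-34166510: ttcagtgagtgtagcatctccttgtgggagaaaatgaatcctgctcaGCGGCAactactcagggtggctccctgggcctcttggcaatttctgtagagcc

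The whole *Psme3* peak holds 1 such hexanucleotide and the *Psmg4* peak 2. *Psme3* fell together with its neighbours, as described above. *Psmg4*, a chaperone of the 20S core with the peak inside it, measured 29.0, 24.4 and 27.5 FPKM in WT and 24.6 and 22.6 in KO, with overlap and without passing the test (limma adjusted p = 0.107). Of the 9 chromosome 11 genes that fell, 8 had no peak within 20 kb.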

How the data were processed

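RNA-seq of rRNA-depleted total RNA from 3 WT and 2 KO ES cell libraries was used. The authors deposited FPKM per gene, mapped to mm10 and rounded to 2 decimals, and ZFP57 peaks as positions. Counting, its strand setting and the annotation are not given in the sources used here, so overlapping genes and antisense partners cannot be told apart. The submitters' processing notes name STAR 2.5.2, BWA 0.6.2 and MACS2 2.1.0 without a role. FPKM are relative to each library, and a fold change on log2(FPKM + 0.1) understates low genes.

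The 14612 genes averaging 0.1 FPKM or more were fitted with limma 3.58.1 (R 4.3.3, eBayes with trend, Benjamini-Hochberg over all of them, threshold 0.05). The test the authors used on these values is not given in the sources used here. SE and 95% intervals are limma's. The exact permutation of 3 against 2 libraries has too few splits to pass 0.05 and was not used. The test was also run on simulated data with independent noise between genes. That simulation held no shift shared by a chromosome and does not bear on one. Genes were placed by symbol or synonym on RefSeq GRCm38.p6, 24288 of 24409. Figures used Python 3.11.15 and matplotlib 3.10.9.

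Members and lists were chosen with earlier results of these data known. Genes named by rule were those on chromosomes 11 and 6, the catalytic and inducible beta subunits, up to 5 called genes elsewhere at each end, the 2 most abundant, those under the filter, and the leading related genes. Others given with values were chosen after their values were seen. Alternatives covered the pseudocount, the filter, scaling, the variance model, chromosome medians, a replicate block, single libraries, thresholds and windows. No pair of RNA-seq libraries shared more than 2.11% of its values. Some genes of the fixed lists are not reported here. Protein levels, other chromatin marks and the hybrid lines' libraries were not used here.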

Additional observations from a re-analysis of the deposited data

How the results depend on the processing

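Of the 10 chromosome 11 proteasome genes, 8 or 9 were lower under every alternative run on all symbol matches except the subtraction of chromosome medians, which by its construction removes a shift shared by the chromosome. With it, 3 were lower, their median went from -0.554 to -0.083 and its distance to the other proteasome genes from -0.48 to -0.01, and 2 proteasome genes were higher and 10 lower in all. *Nfe2l1* (0.10), *Rps27a* (0.15), *Ubb* (0.23) and *Psme2b* (0.34) then turned positive. Of these, *Ubb* (limma adjusted p = 0.00654) and *Psme2b* (adjusted p = 0.0302) passed as higher, and *Nfe2l1* and *Rps27a* did not pass. Centring on all tested genes moved the chromosome 11 median to -0.58. Centring on genes outside chromosomes 11 and 6 moved it to -0.61 and that of the others to -0.13, and called 29 proteasome genes, 29 of them lower and 20 of these elsewhere, instead of 17. The single higher gene (*Psmb2*) became 0 with either centring, quantile normalization or no variance trend. No scaling moved the median of all genes by more than 0.1. Leaving out single libraries gave 0 to 1 higher genes, chromosome 11 medians of -0.62 to -0.50 and distances of -0.52 to -0.44.

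WT and KO libraries of the same number did not deviate together (r = -0.0681 and -0.0357), and the labels give no shared origin. A replicate block, which leaves fewer degrees of freedom, called 11 proteasome genes, 0 of them higher and 8 lower on chromosome 11, and 3012 instead of 6002 genes in all. *Psme4* (adjusted p = 0.06), *Psmd4* (0.0525), *Psmg2* (0.0624) and *Psmb1* (0.127) were among the calls lost.

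*Psmb5* and *Psmb10* were near 0 and changed sign without passing. *Psmb5* was at 0.001 with chromosome medians subtracted, and between -0.041 and 0.013 without single libraries. *Psmb10* was at -0.002 centred on all genes, -0.030 centred outside chromosomes 11 and 6, -0.000 with chromosome medians subtracted and -0.073 with the replicate block, and between -0.338 and 0.395 without single libraries. For 29 named genes, 408 of 462 values kept direction and side of the threshold, 38 lost the call, 2 gained it and 14 reversed. A window of 50 kb gave 4 genes near a peak and the hybrid list 1, instead of 2. *Psmb8* and *Psmb11*, at 0 to 0.06 FPKM, were too low to test.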
